A study of Mus musculus with 12 samples.

Results

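Norrin, the secreted growth factor encoded by Ndp, and the 4 genes of its retinal receptor complex, Fzd4, Lrp5, Lrp6 and Tspan12, were followed between postnatal days 3 and 9 in mouse retina. The members were the gene rows with these 5 symbols, 5 of 53090, and all 5 passed the low-count filter that left 18638 genes for testing. The series holds 12 libraries from retinas of C57BL/6 mice, 6 at postnatal day 3 (P3) and 6 at day 9 (P9), and its design asks which signatures mural cells carry while retinal vessels grow. Both ages had tamoxifen on days 1 and 2, and RNA was taken from HA-tagged ribosomes after immunoprecipitation. According to the labels the material is retinal pericytes, mural cells of the capillary wall. The sources used here do not give the driver of the tag or how many animals made a library, so p-values measure only the spread between libraries, which may be partly technical. The interval from tamoxifen to harvest cannot be told apart from age.

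Library totals ran from 26839599 to 37776172 expected counts, which are read counts estimated by a model. Levels are given as CPM, counts scaled to the TMM-adjusted size of the library, and 1 CPM rested on 25.8 to 38.5 counts. Values after ± are SDs over the 6 libraries of an age unless SE is written. The pericyte markers Pdgfrb (116 ± 56.2 CPM at P3 and 698 ± 209 at P9) and Rgs5 (395 ± 272 and 2698 ± 762 CPM) were measured in every library. Other cells were represented too: the endothelial markers Pecam1 (3.91 ± 2.65 and 10.1 ± 2.63 CPM) and Cdh5 (8.22 ± 5.61 and 14.00 ± 3.99 CPM) and the Müller glia markers Rlbp1 (141 ± 46.1 and 253 ± 32.4 CPM) and Glul (286 ± 19.8 and 479 ± 161 CPM) were also above 0 throughout. Rod photoreceptor markers summed to 2233 ± 723 CPM at P3 and 13339 ± 3683 at P9, and pericyte markers to 862 ± 401 and 4528 ± 1229.8 CPM. Lens markers moved the other way, from 7787 ± 2786 to 321 ± 547 CPM, with 9 of 9 called lower, and were higher in every P3 library (3958 to 11802 CPM) than in any P9 library (50.7 to 1431 CPM). In such material fewer cells of a type and less RNA per cell cannot be told apart. How far the immunoprecipitation enriched pericyte RNA at each age was not tested.

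Norrin is not a Wnt protein, yet it binds the receptor Fzd4 and signals as a Wnt would, through beta-catenin. Lrp5 or Lrp6 acts as co-receptor, and the tetraspanin Tspan12 is an accessory subunit that raises the response of Fzd4 to norrin. In the retina Müller glia are known as the main source of norrin and endothelial cells as the cells that respond. Without a working ligand, receptor, co-receptor or Tspan12, the deep capillaries of the retina form poorly and the barrier between blood and retina is impaired.

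The ligand, its receptor and Tspan12 rose at P9, and both co-receptor genes fell. By edgeR's quasi-likelihood test with Benjamini-Hochberg adjustment across the whole table, 5 of 5 members passed an adjusted p of 0.05, against 51.8% of all genes. Upward calls made up 26.1% of genes and downward calls 25.6%, so a call alone does not set the members apart. The values of the 2 ages did not overlap for 2 of the 5, Fzd4 and Lrp5, against 31.7% of all genes.

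**Figure D1:**
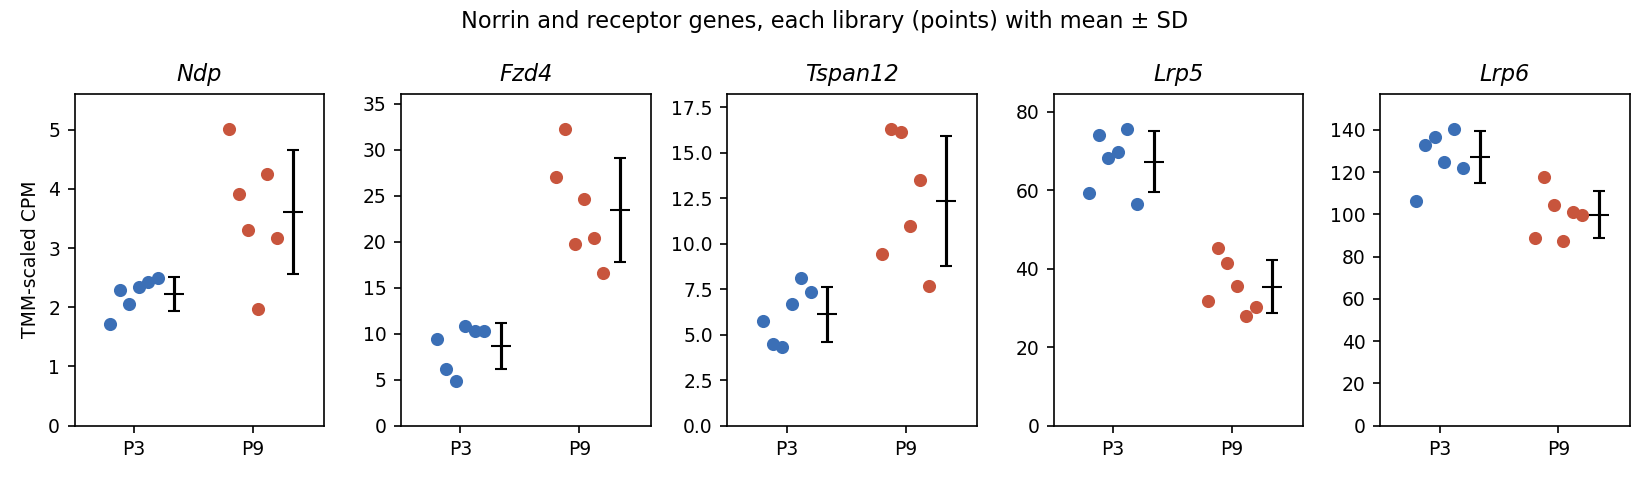
Level of each of the 5 genes in TMM-scaled CPM (vertical axes starting at 0) in the 6 P3 and 6 P9 libraries, with points for libraries and black bars for the mean ± SD. The P9 points of Fzd4 all lie above its P3 points and those of Lrp5 all lie below, whereas Ndp, Tspan12 and Lrp6 overlap between ages.

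Upstream sequence is shown for the 3 of 5 members that were matched by symbol to RefSeq windows (GRCm38.p6, which mm10 denotes), and these are the 3 that rose. The 250 bases before each start are printed 5′ to 3′ on the gene's strand, with capitals for the motifs searched.
Ndp, chrX:16911775-16912024, minus strand: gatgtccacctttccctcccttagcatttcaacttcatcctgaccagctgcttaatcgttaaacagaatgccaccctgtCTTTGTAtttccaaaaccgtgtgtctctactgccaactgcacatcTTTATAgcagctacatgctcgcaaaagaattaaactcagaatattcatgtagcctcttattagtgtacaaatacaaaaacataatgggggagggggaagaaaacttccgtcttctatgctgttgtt
Fzd4, chr7:89404116-89404365, plus strand: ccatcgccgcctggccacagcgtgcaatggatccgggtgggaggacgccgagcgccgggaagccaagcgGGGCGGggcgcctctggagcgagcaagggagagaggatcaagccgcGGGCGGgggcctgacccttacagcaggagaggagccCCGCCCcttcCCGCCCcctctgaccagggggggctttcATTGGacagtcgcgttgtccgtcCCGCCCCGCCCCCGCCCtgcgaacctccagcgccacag
Tspan12, chr6:21852534-21852783, minus strand: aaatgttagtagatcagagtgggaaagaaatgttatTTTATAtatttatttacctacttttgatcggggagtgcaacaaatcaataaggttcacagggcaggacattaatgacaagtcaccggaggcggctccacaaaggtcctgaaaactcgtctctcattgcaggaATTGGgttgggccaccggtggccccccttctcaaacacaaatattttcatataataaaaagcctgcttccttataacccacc
Searched on both strands were the GC box (GGGCGG), the CCAAT box (CCAAT), the TATA box (TATAAA), an ETS core (CCGGAA), a SOX core (AACAAT) and a TCF/LEF core, for which CTTTGAA counted as a match, as did the spelling CTTTGAT, the spelling CTTTGTA and the spelling CTTTGTT. The Fzd4 window was 72.8% G and C with 25 CpG pairs, against medians of 52.4% and 6 pairs over 32851 windows. Those of Ndp and Tspan12 were lower in both, at 41.2% and 42% with 4 and 5 pairs. Fzd4 held 7 GC boxes, 2 of which share the base at -33, and a GC box occurs in 32.7% of windows. A CCAAT box lay on the opposite strand in Fzd4 (-61 to -57) and Tspan12 (-82 to -78), as in 33.8% of windows on either strand. Ndp held the single TCF/LEF match, at -171 to -165, a motif found in 14.8% of windows. TATA box letters on the opposite strand were at -126 to -121 in Ndp and -214 to -209 in Tspan12 (12.4% of windows). The ETS and SOX cores (12.03% and 9.42% of windows) were in none of the 3. These are letter matches and were not measured as binding sites. The Tspan12 window lies within the annotated range of that gene.

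Ndp (ENSMUSG00000040138.7, chromosome X, 16885521 to 16911774), the ligand gene, had the fewest reads of the members, 52 to 83 a library at P3 and 65 to 174 at P9. Its lowest, median and highest values were 1.72, 2.31 and 2.50 CPM at P3 and 1.96, 3.62 and 5.01 CPM at P9. The ages overlapped because P9 replicate 4, at 1.96 CPM, lay below 5 of the 6 P3 libraries, while the other 5 P9 libraries exceeded every P3 library. Its mean went from 2.22 ± 0.291 to 3.61 ± 1.05 CPM, a log2 fold change of 0.70 ± 0.23 (SE; 95% interval 0.21 to 1.19; edgeR adjusted p = 0.0192). This call was the least stable of the 5. Without P9 replicate 1, the highest library, the log2 fold change was 0.58 (edgeR adjusted p = 0.0528), and without P9 replicates 5 and 6 it was 0.68 (edgeR adjusted p = 0.0591).

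Most markers of Müller glia, known to make norrin, rose over the same interval. The 12 Müller glia markers summed to 1273 ± 183 CPM at P3 and 1908 ± 269 at P9, with 8 called higher, 0 lower and none at 0 in any library. The 6 astrocyte markers were mixed: they summed to 223 ± 37.3 and 362 ± 42.2 CPM, with 3 called higher (S100b, Aldoc and Slc6a11), 1 lower (Pax2, 2.08-fold) and Gfap and Pdgfra not called; these genes were named after their values were seen. Within a library Ndp stood at 0.195 to 0.242% of the Müller glia sum at P3 (median 0.216%) and 0.155 to 0.298% at P9 (median 0.217%), which overlapped. The log2 difference was -0.028 (exact two-sided permutation test, adjusted p = 0.866 over 12 ratios, n = 6 per age). Against the astrocyte sum it was -0.15 (exact permutation adjusted p = 0.328). Abundant markers carry such a sum. Relative to the mean of the log2 levels of the Müller glia markers instead, the log2 difference was -0.64 (exact permutation adjusted p = 0.00866). In that mean every marker has the same weight, whatever its level. Among those markers Abca8a, a transporter gene named after its values were seen, rose 205-fold, a log2 fold change of 7.68. It averaged 0.495 CPM at P3, with 0.0357 CPM in the lowest library, and 104 CPM at P9. The other markers ran from -0.39 (Dapl1) to 3.29 (Aqp4). How far Abca8a alone sets the value of -0.64 was not tested.

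Fzd4 (ENSMUSG00000049791.4, chromosome 7, 89404366 to 89410110), the norrin receptor, rose most. It ran from 4.88 through a median of 9.83 to 10.8 CPM at P3 and from 16.6 through 22.5 to 32.2 CPM at P9. Every P9 library was above every P3 library, and P3 replicates 2 and 3, at 6.14 and 4.88 CPM, lay below the other P3 libraries. The mean rose 2.71-fold, from 8.63 ± 2.49 to 23.4 ± 5.68 CPM, with a log2 fold change of 1.44 ± 0.21 (SE; 95% interval 0.99 to 1.88; edgeR adjusted p = 4.42e-05). The annotated range of Fzd4 overlaps that of Tmem135, which went from 53.3 ± 8.14 to 90.6 ± 13.5 CPM (edgeR adjusted p = 5.94e-05). The kit keeps strand, but the sources used here do not state whether counting did. The expected count of Fzd4 was a whole number in all 12 libraries, and sharing of reads in the overlap was not tested.

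Fzd4 took a larger share of frizzled reads at P9. Of the 9 other frizzled genes, 5 fell (Fzd1, Fzd2, Fzd3, Fzd5 and Fzd7), 0 rose and 4 did not pass edgeR's test. Among these 4, Fzd10 had a log2 fold change of 0.63 ± 0.27 (SE; edgeR adjusted p = 0.0650) and passed by DESeq2 or when any of 3 libraries (replicates 4 and 5 of P3, replicate 4 of P9) was left out. Fzd4 held 1.51 to 3.88% of the summed CPM of Fzd1 to Fzd10 at P3 (median 3.19%) and 9.07 to 16.02% at P9 (median 12.1%), without overlap. Its mean share went from 2.89 ± 0.870% to 12.3 ± 2.86% (exact two-sided permutation test, adjusted p = 0.00289, n = 6 per age, where the smallest unadjusted p possible is 0.00216). Fzd3 and Fzd5, the frizzleds with most reads, went from 41.3 ± 3.66% to 38.8 ± 2.23% and from 39.6 ± 2.25% to 31.1 ± 2.44%. Shares of reads also carry transcript length, so their order is not an order of molecules.

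**Figure D2:**
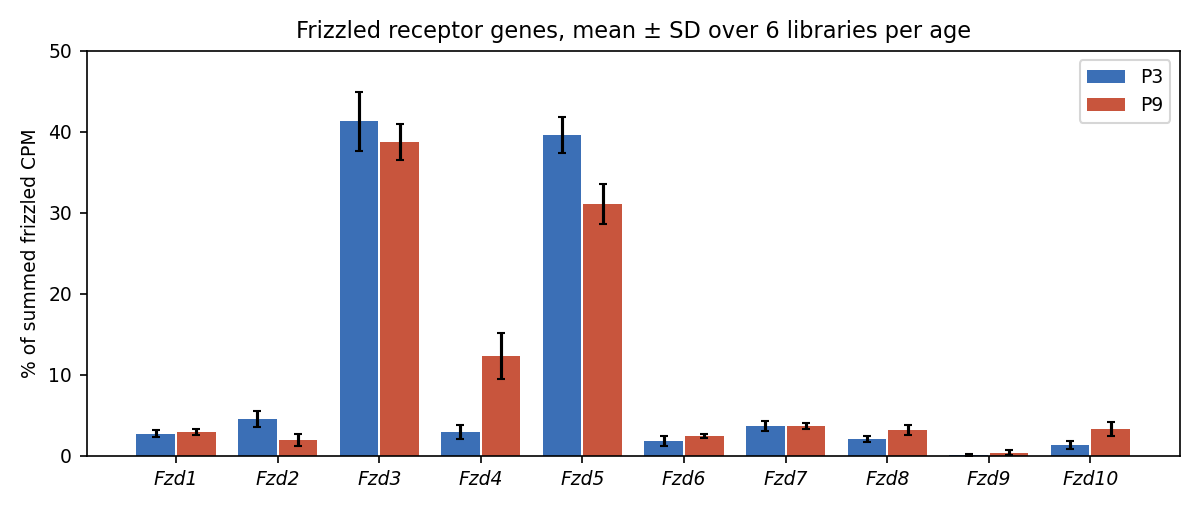
Share of the summed CPM of the 10 frizzled genes held by each (vertical axis, percent), with bars for the mean over 6 P3 or 6 P9 libraries and error bars for the SD. Fzd4 goes from 2.89 to 12.3%, while Fzd5 goes from 39.6 to 31.1% and Fzd2 from 4.51 to 1.97%.

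Tspan12 (ENSMUSG00000029669.14, chromosome 6, 21771391 to 21879596), the accessory subunit, rose 2.01-fold. Values at P3 ran from 4.34 through a median of 6.23 to 8.10 CPM, and at P9 from 7.67 through 12.2 to 16.3 CPM. The single overlap was that P9 replicate 6 (7.67 CPM) lay below P3 replicate 5 (8.10 CPM). On average it went from 6.12 ± 1.53 to 12.3 ± 3.57 CPM, a log2 fold change of 1.01 ± 0.21 (SE; 95% interval 0.55 to 1.46; edgeR adjusted p = 0.00108). In 2 P9 libraries its expected count was not whole (627.83 and 609.66), as happens where a model divides reads between genes.

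Lrp5 (ENSMUSG00000024913.16, chromosome 19, 3584825 to 3686585), a co-receptor needed for retinal vessels, fell. At P3 it ran from 56.5 through 69.02 to 75.6 CPM (lowest, median, highest) and at P9 from 28.04 through 33.7 to 45.4 CPM, so every P9 library was below every P3 library. Mean levels went from 67.3 ± 7.78 to 35.4 ± 6.77 CPM, with a log2 fold change of -0.92 ± 0.12 (SE; 95% interval -1.18 to -0.67; edgeR adjusted p = 1.67e-05). Its paralog Lrp6 (ENSMUSG00000030201.15, chromosome 6, 134446476 to 134566913), a general Wnt co-receptor, fell less. It ran from 106 through 129 to 140.4 CPM at P3 and from 87.3 through 100.5 to 118 CPM at P9. The single overlap was that P9 replicate 2 (118 CPM) lay above P3 replicate 1 (106 CPM). Mean Lrp6 went from 127 ± 12.3 to 99.9 ± 11.2 CPM, with a log2 fold change of -0.35 ± 0.088 (SE; 95% interval -0.54 to -0.16; edgeR adjusted p = 0.00400).

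The balance of co-receptor reads moved towards Lrp6. Within a library the ratio of Lrp6 to Lrp5 was 1.78 to 2.15 at P3 (median 1.82) and 2.44 to 3.57 at P9 (median 2.67), without overlap. Its log2 difference was 0.58 (exact two-sided permutation test, adjusted p = 0.00289 over 12 ratios, n = 6 per age). The size of the ratio depends on transcript length, and its change does not where the same transcripts are made.

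Set against endothelial markers, the receptor genes gave different answers with different sums. The 15 endothelial markers summed to 1046 ± 63.7 CPM at P3 and 941 ± 86.4 at P9, and 8 were called higher and 1 lower. The lower one, Kdr, a VEGF receptor gene, made up 88.5 ± 4.86% of the sum at P3 and 64.5 ± 6.44% at P9. Without Kdr, a choice made after seeing the data, the sum went from 119.6 ± 48.3 to 338 ± 93.1 CPM. Relative to the full sum Fzd4 was 2.96-fold and Tspan12 2.13-fold higher at P9 (exact two-sided permutation tests, adjusted p = 0.00289 for each, n = 6 per age). Relative to the sum without Kdr, Fzd4 had a log2 difference of -0.16 (exact permutation adjusted p = 0.359) and Tspan12 was 1.55-fold lower (exact permutation adjusted p = 0.0260). With the mean log2 level of all 15 markers, Kdr included, the log2 difference was 0.26 for Fzd4 and -0.21 for Tspan12 (exact permutation adjusted p = 0.182 and 0.431). No direction relative to endothelial markers therefore held over the 3 measures.

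Both co-receptors were lower by either endothelial measure. Lrp5 was 1.71-fold lower relative to the full sum and 5.65-fold lower without Kdr (exact permutation adjusted p = 0.00289 and 0.00325). Lrp6 was 1.14-fold and 3.78-fold lower (exact permutation adjusted p = 0.0364 and 0.00325). The first of these ended when any of 7 libraries (P3 replicates 2, 3 and 5, P9 replicates 1, 2, 4 and 5) was left out, where the exact permutation adjusted p reached 0.0779. The sum without Kdr alone did not overlap between ages (52.6 to 191 CPM at P3 and 234 to 509 at P9). In CPM, Lrp5 fell 1.90-fold and Lrp6 1.27-fold, so the tests without Kdr mostly carry the rise of that sum. The pericyte sum was 5.25-fold higher at P9, with 12 of 15 markers called higher and 1 lower. Relative to it Fzd4 was 2.10-fold, Tspan12 2.91-fold, Lrp6 7.10-fold and Lrp5 10.6-fold lower at P9 (exact permutation adjusted p = 0.00289 for each). The pericyte sum alone did not overlap between ages (404 to 1424 CPM at P3 and 2927 to 6572 at P9). Rgs5 held a mean of 395 and 2698 CPM of it. Fzd4 and Tspan12 rose in CPM, by less than the sum, and Lrp5 and Lrp6 fell in CPM by far less than these ratios. The tests against the pericyte sum therefore mostly carry its rise, and they show no fall of Fzd4 or Tspan12. Other classes moved in the same libraries. Retinal progenitor markers summed to 2425 ± 333 CPM at P3 and 1301 ± 84.3 at P9 (10 of 11 called lower, 1 higher), and the lens sum, given above, was 24.3-fold lower at P9. The sums of bipolar cell and erythroid markers were 13.8-fold and 13.3-fold higher at P9, and that of rod markers 5.97-fold, with every listed marker of the 3 classes called higher. The part of these shifts in the members' changes was not tested.

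**Figure D3:**
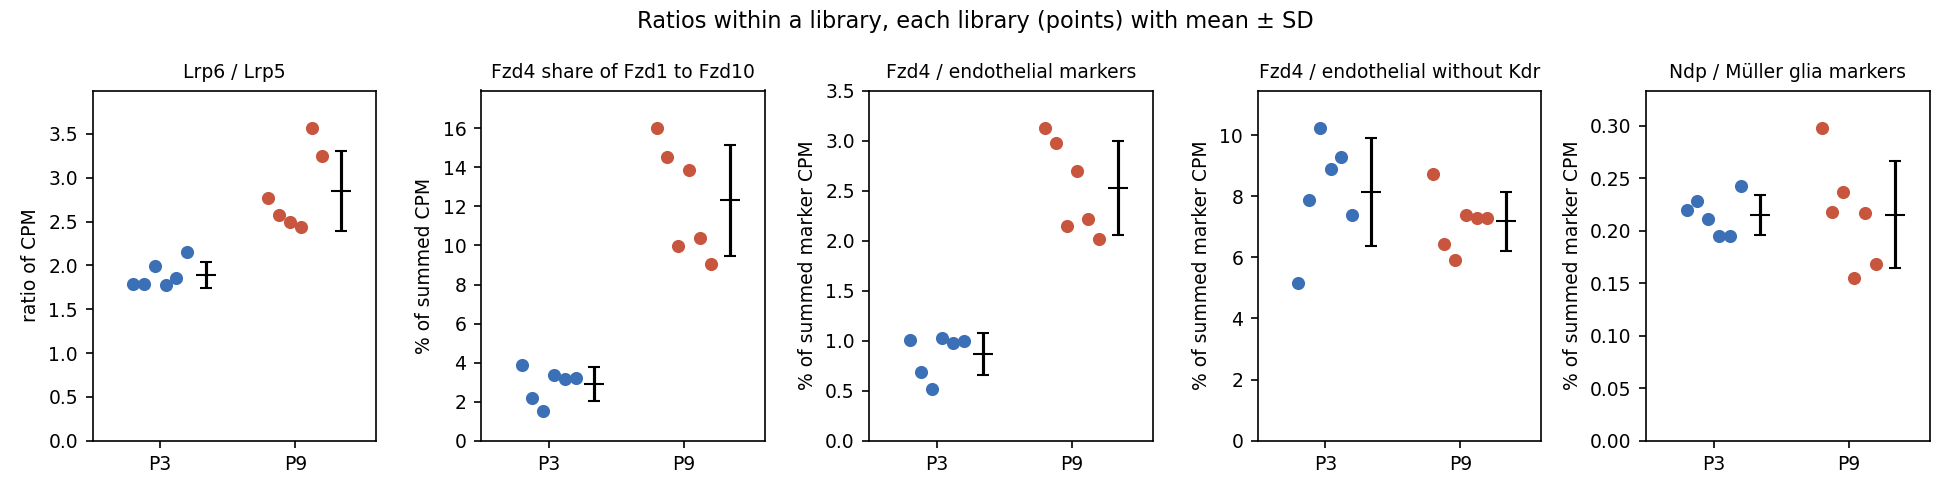
Ratios taken inside each library, with points for 6 P3 and 6 P9 libraries and black bars for the mean ± SD. The panels give Lrp6 over Lrp5, Fzd4 as a percent of all frizzled CPM, Fzd4 as a percent of the endothelial marker sum with and without Kdr, and Ndp as a percent of the Müller glia marker sum; the first 3 do not overlap between ages and the last 2 do.

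Libraries also differed within an age. P9 replicate 2 had the highest P9 value of Fzd4, Tspan12, Lrp5 and Lrp6, and P9 replicate 1 that of Ndp. Genes most like each member were sought among 10277 genes by Pearson's correlation of log2 CPM over 12 libraries after the mean of each age was taken off. With so many genes and few libraries, which share depth and cell mixture, these values are a description. Fzd4 was nearest to B2m, a subunit of MHC class I (0.94), Elk3, an ETS factor (0.90), and the death receptor gene Tnfrsf21 (0.89). Tspan12 was nearest to Twsg1, which encodes a BMP-binding protein (0.90), the actin bundler Pls3 (0.89) and Pam (0.89). Lrp5 was nearest to Axin1 (0.91), a scaffold that Lrp co-receptors recruit, Rusc2 (0.90) and Ptk7 (0.89). Lrp6 was nearest to Ubn1 (0.93), Ptpn11 (0.92) and Ndel1 (0.91), and Ndp to Slc41a1 (0.93), Eif4b (0.92) and Hivep1 (0.88). The highest of the 10 pairs of members were these: Fzd4 with Tspan12 gave 0.65 (0.92 within P3 and 0.39 within P9) and Lrp5 with Lrp6 gave 0.62 (0.76 and 0.55). The other 8 pairs ran from -0.15 to 0.38.

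Around the complex, 7 lists with 110 genes of the pathway were read from the same fit. Of the 94 tested, 24 rose, 37 fell and 33 did not pass, so 64.9% were called against 51.8% of all genes. Their median log2 fold change was -0.11, against -0.0018 over all tested genes.

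**Figure D4:**
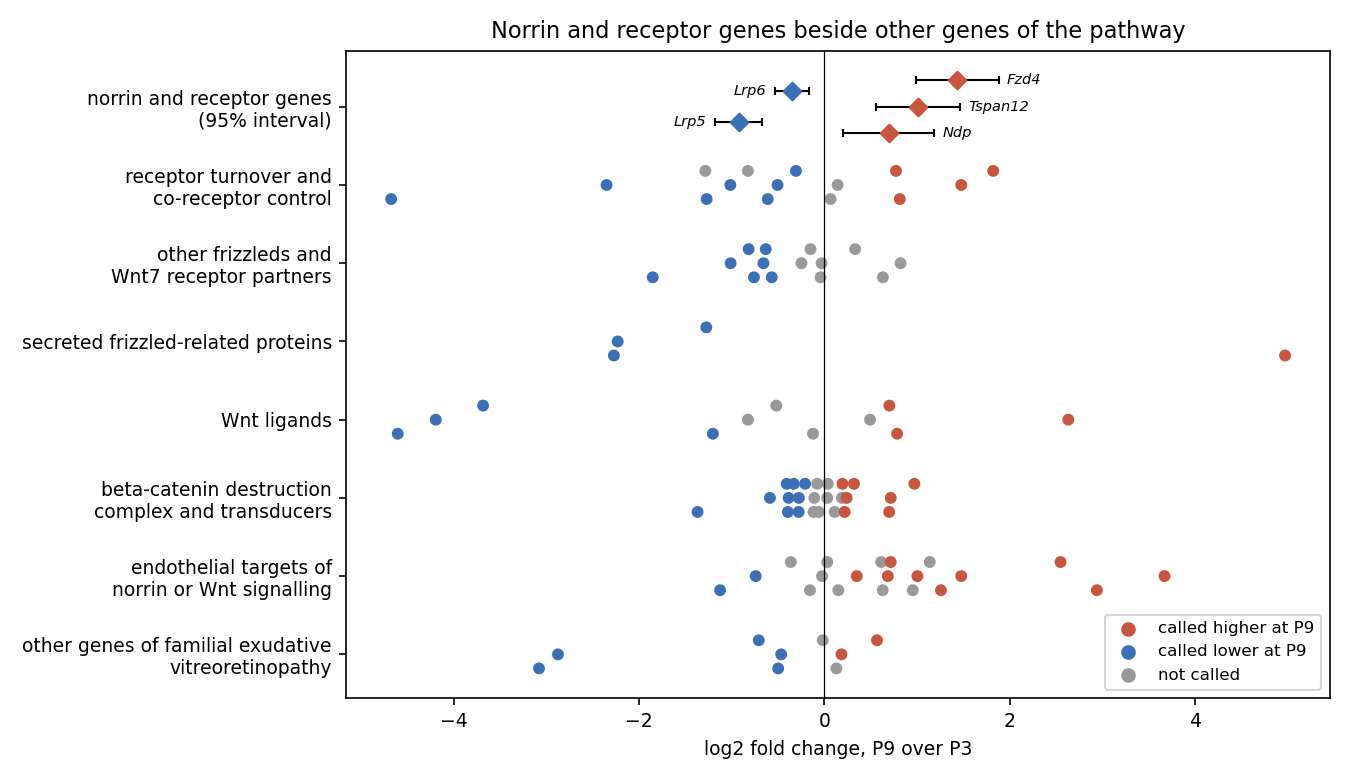
Log2 fold change of P9 over P3 (horizontal axis) for the 5 members with their 95% intervals and for each tested gene of the 7 pathway lists (points, offset vertically to separate them), coloured by the call at an edgeR adjusted p of 0.05. The list of other frizzleds and Wnt7 receptor partners, which also holds Ror1, Ror2 and Ryk, has a median of -0.41, opposite in sign to Fzd4. The list of endothelial targets, whose reads were not assigned to a cell type, has a median of 0.66.

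Genes of receptor turnover and of co-receptor control, a list that also holds secreted Wnt inhibitors such as Wif1 and Notum, moved both ways. Of 15 tested, 4 rose, 7 fell and 4 did not pass. Lgr4, an R-spondin receptor, went from 158 ± 16.2 to 65.4 ± 6.39 CPM (edgeR adjusted p = 5.11e-08), while its relative Lgr5 rose 3.54-fold (edgeR adjusted p = 2.46e-05). Dkk3, of the Dickkopf family, fell from 395 ± 34.1 to 259 ± 23.03 CPM. Mesd, the chaperone of Lrp5 and Lrp6, was named after its values were seen and did not pass (log2 fold change 0.14 ± 0.12, SE; edgeR adjusted p = 0.336). The list of other frizzleds and Wnt7 receptor partners also holds Wnt receptor genes of other families, Ror1, Ror2 and Ryk. Of its 14 genes, 0 rose, 7 fell and 7 did not pass. Ror1 was among those that fell (log2 fold change -0.63, edgeR adjusted p = 0.00351), and Ror2 and Ryk did not pass. Ror1, Ror2 and Ryk were named after their values were seen. Fzd5, a frizzled of neural retina, fell from 119 ± 11.5 to 59.2 ± 5.91 CPM, Fzd2 from 13.4 ± 2.32 to 3.72 ± 1.36 CPM, and Reck, a receptor partner for Wnt7, from 68.5 ± 11.2 to 38.9 ± 6.69 CPM.

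Of 11 Wnt ligand genes tested, 3 rose, 4 fell and 4 did not pass. Among those that fell, Wnt4, named after its values were seen, had 4.25 ± 9.15 CPM at P3. Its call was lost without P3 replicate 1 (edgeR adjusted p = 0.475) and by limma-voom (adjusted p = 0.358). Wnt7a and Wnt7b, the Wnts that serve brain vessels, went from 3.41 ± 1.06 to 0.135 ± 0.0945 CPM and from 17.1 ± 3.44 to 0.924 ± 1.18 CPM (edgeR adjusted p = 3.37e-06 and 1.66e-05). Wnt5b fell 2.30-fold. Of the secreted frizzled-related proteins, which bind Wnts, Sfrp1, Sfrp2 and Sfrp4 were 4.82-fold, 4.69-fold and 2.42-fold lower at P9, and Frzb went from 0.343 ± 0.327 to 10.8 ± 2.59 CPM (edgeR adjusted p = 6.60e-07). Sfrp5 had too few reads to pass the filter on all 12 libraries. When P3 replicate 2, P3 replicate 5, P9 replicate 2 or P9 replicate 3 was left out it did pass, and the genes of this list called higher were 2 in place of 1, with 3 lower as before; with no filter on all 12 libraries the count stayed 1.

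Inside the cell, of 24 genes of the destruction complex and transducers, 7 rose, 9 fell and 8 did not pass, with a median log2 fold change of -0.068. With any 1 library left out, 5 to 6 rose and 8 to 9 fell, and without P9 replicates 5 and 6 together, 4 rose. The transcription factor gene Tcf7l2 fell from 25.1 ± 1.71 to 9.75 ± 1.05 CPM and Tcf7 rose from 5.13 ± 1.18 to 10.1 ± 1.98 CPM (edgeR adjusted p = 6.14e-08 and 0.000374). Csnk1g1, a kinase gene, rose 1.63-fold. Ctnnb1, which encodes beta-catenin, had a log2 fold change of -0.21 (edgeR adjusted p = 0.0299). Leaving out any of 7 libraries (P3 replicates 4, 5 and 6 and P9 replicates 1, 2, 4 and 6) ended this call, with edgeR adjusted p from 0.0547 to 0.0710. Ctnnb1, Apcdd1, Lef1, Axin2, Cldn5 and Plvap were named after their values were seen.

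Of 20 tested endothelial genes downstream of norrin or Wnt signalling, 9 rose, 2 fell and 9 did not pass. In the same libraries the full endothelial marker sum was 1.11-fold lower at P9 and the sum without Kdr 2.83-fold higher. With any 1 library left out, 8 to 12 genes of this list rose, and DESeq2 and limma-voom each gave 11. The 12 came without P3 replicate 1, where Sox18, Abcb1a and Foxq1 passed (edgeR adjusted p = 0.000102, 0.00859 and 0.0114). Sox18, Abcb1a and Foxq1 were named after their values were seen. Cav1, a caveolin gene of vessel walls, rose from 3.39 ± 2.21 to 43.4 ± 11.7 CPM, and Spock2, a proteoglycan gene, from 111 ± 8.24 to 222 ± 24.02 CPM. Slc2a1, the glucose transporter gene, fell from 326 ± 15.9 to 195 ± 27.96 CPM. Spock2 and Slc2a1 stood far above the endothelial markers Pecam1 (3.91 and 10.1 CPM) and Cdh5 (8.22 and 14.0 CPM). The list names known endothelial targets, and which cells gave their reads was not tested. Of general targets, Apcdd1 rose 2.79-fold and Lef1 1.64-fold (edgeR adjusted p = 0.000579 and 0.0171), whereas Axin2 stood at 28.2 ± 2.38 and 28.9 ± 3.21 CPM (edgeR adjusted p = 0.787). The barrier gene Cldn5 rose 1.61-fold (edgeR adjusted p = 0.0255), a call lost without P3 replicate 2, 3 or 5 or P9 replicate 2, at 0.0543 to 0.0607. Plvap, a gene of leaky vessels, stood at 2.15 ± 0.523 and 2.12 ± 0.426 CPM (edgeR adjusted p = 0.942).

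Of 9 other genes of familial exudative vitreoretinopathy, the human disease of norrin and its receptor complex, 2 rose, 5 fell and 2 did not pass. Without P9 replicate 5 or 6, 1 rose, since Emc1 (named after its values were seen) no longer passed (edgeR adjusted p = 0.0504 and 0.0539). Kif11, a mitotic kinesin gene, was 7.33-fold lower, Atoh7, a factor of ganglion cell birth, 8.45-fold, and Zfp408 1.63-fold (edgeR adjusted p = 9.95e-08, 5.17e-06 and 1.12e-05).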

How the data were processed

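The authors deposited RSEM expected counts per gene for 12 libraries (6 P3, 6 P9), not scaled to depth. Tools named by the submitters' processing notes are STAR, RSEM, limma, FastQC and Trim Galore, with mm10 as the build; their versions and roles, and the gene annotation, are not stated there. Groups follow the age in the labels. Sample names of P9 replicates 5 and 6 are crossed between labels and tables, and both are P9.

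Counts were rounded, filtered with filterByExpr (34452 of 53090 rows removed), scaled by TMM and tested with edgeR 4.0.16 in R 4.3.3 (quasi-likelihood, Benjamini-Hochberg). The SE is the log2 fold change over the square root of F. Ratios used CPM + 0.5 and exact permutation tests. Correlations used genes averaging at least 10 CPM and a prior count of 2. Alternatives were other scalings and filters, DESeq2 1.42.0, limma-voom (limma 3.58.1), a robust fit, a stricter threshold and left-out libraries. The procedure was tested on simulated counts.

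The members and lists were chosen with earlier results of these data known. Named were the members, the 3 called genes with the smallest adjusted p per list, short lists in full, 3 like genes per member, defining markers, and others where said. Levels per kilobase were not computed, since no exon lengths were used here.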

Additional observations from a re-analysis of the deposited data

Results flagged for a closer look

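Of 114 groups of 6 values, 9 held a library far from the other 5, and chance gives about 1 in 20 such groups. No value of a member was among them. P9 replicate 3 had Sfrp1 at 21.2 CPM against 5.86 to 9.15 in the other P9 libraries, and Wnt7b at 3.29 CPM against 0.208 to 0.801. P3 replicate 1 had Frzb at 0.958 CPM against 0.0602 to 0.357 in the other P3 libraries, and Cav1 at 7.63 CPM against 1.20 to 3.54. The same library had a fibroblast marker sum of 592 CPM against 102 to 168 and an astrocyte marker sum of 151 CPM against 220.5 to 252. P9 replicate 2, the P9 library with most Fzd4, Tspan12, Lrp5 and Lrp6, had an endothelial marker sum of 1099 CPM against 849 to 943, a lens marker sum of 1431 CPM against 50.7 to 204 in the other P9 libraries, all far below the 3958 to 11802 CPM of the P3 libraries, and an erythroid marker sum of 1585 CPM against 160.4 to 586.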

How the results depend on the processing

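Fzd4, Lrp5, Lrp6 and Tspan12 (where tested), the Lrp6 to Lrp5 ratio and the Fzd4 share kept direction and call under every alternative run. Ndp kept its direction, with a log2 fold change of 0.58 to 0.82 when 1 library was left out. It lost its call without P9 replicate 1 (0.58), at an adjusted p of 0.01 (0.70) and without P9 replicates 5 and 6 (0.68). With a mean of at least 10 CPM, Ndp and Tspan12 gave no value, and the list genes called were 13 higher and 23 lower, against 24 and 37, because fewer genes were tested. With classes as mean log2 levels, the log2 ratio was 0.26 for Fzd4 and -0.21 for Tspan12 over endothelial markers, -0.64 for Ndp over Müller glia and 0.10 over astrocyte markers. Without Kdr it was -0.16 for Fzd4 and -0.63 for Tspan12. From raw counts Ndp over Müller glia was 0.067, and leaving out 1 library gave -0.13 to 0.061 there and -0.22 to -0.16 for Lrp6 over endothelial markers. Causes were not tested beyond the makeup of the sums. Ndp had the fewest reads of the members, and the part of depth in its lost calls was not tested. Levels per kilobase and their alternative were not run, since no exon lengths were used here. No paired analysis was possible because replicate numbers here only name libraries and tie no P3 library to a P9 library.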
